A study of Mus musculus with 4 samples.

Results

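The genes described here are 9 transcription factors that set the identity of helper T cells and of the CD4 lineage itself: Tbx21, Eomes, Gata3, Rora, Bcl6, Maf, Runx3, Zbtb7b and Prdm1. They were chosen by name as lineage-defining factors, with earlier results of these data known. They are 9 of the 25239 gene symbols counted in each library. The libraries were made from CD4+ T cells isolated from mouse lungs bearing LLC-OVA tumors, which are Lewis lung carcinoma cells that express ovalbumin and were given intravenously. The question of the comparison was what changes in tumor-infiltrating CD4+ T cells that cannot respond to activin-A through ALK4, the type I receptor encoded by Acvr1b.

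All mice were on the C57BL/6 background, and the study used young adult males. The knockout group carried CD4CreERT2+/-/Acvr1bfl/fl (named CD4/ALK4-KO), in which a tamoxifen-inducible Cre driven by the Cd4 promoter removes floxed Acvr1b. The study's methods describe daily tamoxifen by intraperitoneal injection, with the tumor cells given on its last day. The control group was WT, called littermates by the study. Whether these WT mice carried the Cre or the floxed allele is not given in the sources used here. Whether the WT mice received tamoxifen is likewise not stated. Both groups bore LLC-OVA tumors, and the lungs were excised after 18 to 22 days per the labels, while the study's methods give a range of days for these mice that begins and ends earlier. There were 2 libraries in each group, called biological replicates by the study, with no word on pooling of animals. The sample labels give no animal, so the p-values measure the spread between these libraries.

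Each naive CD4+ T cell can enter one of several effector programmes, and each programme is held in place by a master regulator that also opposes its rivals. T-bet (Tbx21) and its relative Eomes drive interferon-γ programmes, GATA3 drives type 2 cytokines, RORα (Rora) acts in Th17 cells, and BCL6 drives follicular helper cells while BLIMP-1 (Prdm1) represses it. ThPOK (Zbtb7b) keeps a T cell in the CD4 lineage and RUNX3 favours the CD8 and cytotoxic lineage. c-Maf (Maf) promotes IL-10 and IL-21 and is also abundant in macrophages.

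The libraries held between 11823908 and 13943237 counts, and all 9 factors passed the filter on low counts that left 13919 genes for testing. Summed TMM-normalized CPM (counts scaled to the effective size of each library) of the CD3 chains Cd3e, Cd3d and Cd3g were 158 and 149 in the WT libraries and 744 and 621 in the libraries labelled CD4/ALK4-KO. A label check with Acvr1b gave 31.1 and 25.3 CPM in WT and 27.0 and 36.0 in CD4/ALK4-KO. On this scale the groups overlapped and the targeted gene was not lower (log2 fold change 0.16, edgeR adjusted p = 0.66). Per 1000 summed counts of the CD3 chains it gave 196 and 169 in WT and 36.3 and 57.9 in CD4/ALK4-KO. Against the CD3 chains it was lower (log2 fold change -1.96, edgeR adjusted p = 3.14e-07), as were 91.0% of all genes tested. The Acvr1b count covers the whole gene, and the floxed exon is not given in the sources used here. Other cells also carry Acvr1b, so the labels could not be checked this way. WT and CD4/ALK4-KO below mean the libraries so labelled. The CD3 chains and Cd4 were present in every library, beside genes of other cells: summed markers were 1948 to 2283 CPM for macrophages and monocytes and 3820 to 6850 CPM for fibroblasts.

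Scaled to the whole library, the lineage factors were mostly higher in CD4/ALK4-KO. With TMM scaling, 7 of the 9 rose and none fell past an edgeR adjusted p of 0.05, where 17.4% of all genes tested rose and 15.4% fell. At an unadjusted p of 0.05, 0 of the 9 were lower, and DESeq2 also called 0 lower. Their median log2 fold change was 1.45, against -0.01 over all genes tested. The other 2, Maf and Zbtb7b, were not called. The libraries of the groups did not overlap for 8 of the 9, all higher in CD4/ALK4-KO, which is true of 32.7% of all genes. In these bulk libraries, fewer cells of a type and less RNA per cell cannot be told apart. The CD3 sum was also higher in both CD4/ALK4-KO libraries. Between those libraries it was higher in replicate 1 (744 against 621 CPM), whereas 7 of the 9 factors were higher in replicate 2. The part of T cell content in these rises was not tested.

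**Figure D1:**
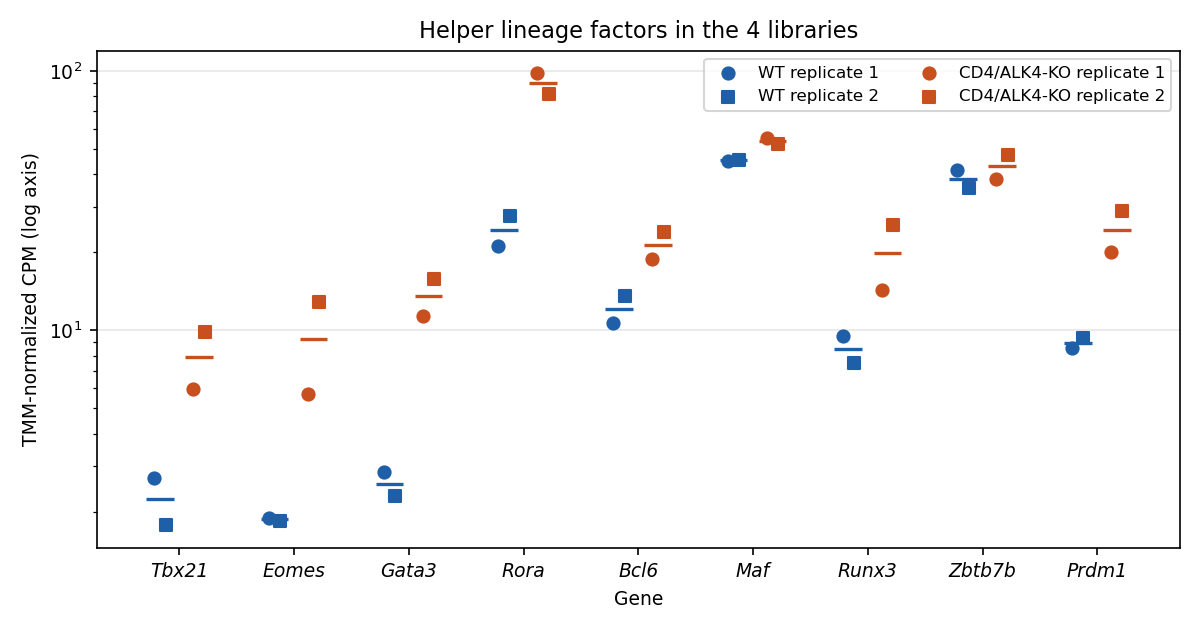
TMM-normalized CPM (log axis) of the 9 lineage factors in each library, circles for replicate 1 and squares for replicate 2, with a bar at the group mean (n = 2). Blue WT and orange CD4/ALK4-KO points overlap for Zbtb7b and are apart for the other 8, by the least for Maf.

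Tbx21 (chr11:97098071-97115331 of GRCm38, minus strand) encodes T-bet, the master regulator of Th1 cells. Its counts were 37 and 24 in WT and 71 and 122 in CD4/ALK4-KO, or 2.70, 1.77, 5.96 and 9.87 CPM. Both knockout libraries lay above both WT libraries, and the fitted rise was 1.82 on the log2 scale (standard error 0.42, edgeR adjusted p = 0.00188).

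Eomes (chr9:118478212-118486132, plus strand), the T-box factor of cytotoxic and memory T cells and NK cells, was the lowest of the 9 per length of exon. It gave 1.90 and 1.85 CPM in WT and 5.71 and 12.9 CPM in CD4/ALK4-KO. The WT libraries were nearly equal while the knockout libraries differed by 2.25-fold, the widest gap between replicates among the 9. The log2 fold change was 2.31 (standard error 0.43, edgeR adjusted p = 0.000283).

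Gata3 (chr2:9857078-9890034, minus strand), which drives Th2 cells and is also used by innate lymphoid cells and activated regulatory T cells, had the largest fold change of the 9. Its values were 2.84 and 2.29 CPM in WT and 11.4 and 15.8 CPM in CD4/ALK4-KO, with no overlap. The log2 fold change was 2.40 (standard error 0.35, edgeR adjusted p = 1.85e-05).

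Rora (chr9:68653786-69388246, plus strand) encodes RORα, a nuclear receptor of Th17 cells and of type 2 innate lymphoid cells. Its values were 21.1 and 27.7 CPM in WT and 98.0 and 81.8 CPM in CD4/ALK4-KO. It was the one rising factor with its higher knockout value in replicate 1, and its log2 fold change of 1.88 had the smallest standard error of the 7 that rose (0.23, edgeR adjusted p = 2.26e-06). Eomes, Gata3 and Rora each share exonic bases with a gene on the other strand in GENCODE (118, 155 and 82 bp), and Gata3 shares 77 bp with 9230102O04Rik on its own strand. The kit does not mark strand, so reads from those bases cannot be told apart.

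The antagonists Bcl6 and Prdm1 both rose. Bcl6 (chr16:23965052-23988852, minus strand), the repressor that defines follicular helper T cells and germinal center B cells, gave 10.7 and 13.5 CPM in WT and 18.8 and 24.0 CPM in CD4/ALK4-KO. Its rise of 0.82 on the log2 scale was the smallest of the 7 (standard error 0.28, edgeR adjusted p = 0.0255). The call was lost without WT replicate 1 (0.66), WT replicate 2 (0.999) or CD4/ALK4-KO replicate 2 (0.63), with adjusted p from 0.078 to 0.31, and with the replicate block (0.82, adjusted p = 0.083). Prdm1 (chr10:44437177-44528501, minus strand) encodes BLIMP-1, the repressor of terminal effector T cells and plasma cells. It gave 8.53 and 9.38 CPM in WT and 19.98 and 28.9 CPM in CD4/ALK4-KO. That is a rise of 1.45 on the log2 scale (standard error 0.28, edgeR adjusted p = 0.000469).

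Of the lineage-commitment pair, Runx3 rose and Zbtb7b was not called. Runx3 (chr4:135120652-135177990, plus strand), the factor of CD8 and cytotoxic T cells, gave 9.55 and 7.46 CPM in WT and 14.4 and 25.6 CPM in CD4/ALK4-KO. It rose by 1.23 on the log2 scale (standard error 0.31, edgeR adjusted p = 0.00401). Its call was lost without WT replicate 2 (1.06, adjusted p = 0.070) and without CD4/ALK4-KO replicate 2 (0.75, adjusted p = 0.051). Zbtb7b (chr3:89377644-89394776, minus strand), which encodes ThPOK and holds T cells in the CD4 lineage, gave 41.4 and 35.5 CPM in WT and 38.4 and 47.4 CPM in CD4/ALK4-KO. These values overlapped, and the log2 fold change of 0.16 had a 95% interval from -0.31 to 0.62 (edgeR adjusted p = 0.64).

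The sequence before the transcription starts is shown for Bcl6, Runx3 and Zbtb7b, because these hold, in the RefSeq table of promoters (GRCm38.p6), the letters of RUNX factors, or those shared by STAT factors and BCL6. Of the 9 factors 8 were in the table, with 11 starts, and the 250 bases before each start were searched on both strands. The letters TTCNNNGAA, shared by STAT factors and BCL6, were found before 2 of the 11 starts, both of Bcl6, and before 7.02% of all 32851 starts. The RUNX letters TGTGGT, which read ACCACA on the other strand, were found before 2 of the 11 and 14.0% of all starts. The T-box letters GTGTGA (12.3% of all starts), the GATA letters AGATAA (9.99%) and the ROR letters AGGTCA (14.0%) were found before 0 of the 11, while AGNGAAAG for PRDM1 (7.30%) and TGCTGA for MAF (16.1%) were each found before 1, of Zbtb7b and of Gata3. The Gata3 window lies within annotated exons and is not printed. Matches are in capitals in the sequences that follow, which give the gene's own strand from 5′ to 3′, at chr16:23988853-23989102 (minus) for the Bcl6 start at the annotated 5′ end of the gene, chr16:23981284-23981533 (minus) for the second Bcl6 start, whose following bases match no GENCODE transcript of the gene, chr4:135120448-135120644 (plus, the 197 bases outside annotated exons) for Runx3 and chr3:89387672-89387921 (minus) for Zbtb7b. They are a description of letters, and the counts do not show which start was used.
Bcl6 at the 5′ end: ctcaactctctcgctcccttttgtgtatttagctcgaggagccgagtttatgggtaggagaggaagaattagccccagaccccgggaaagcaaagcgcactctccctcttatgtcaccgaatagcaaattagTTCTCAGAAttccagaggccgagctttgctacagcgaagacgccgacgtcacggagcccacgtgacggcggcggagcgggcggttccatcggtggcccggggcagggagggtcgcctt
Bcl6 at the second start: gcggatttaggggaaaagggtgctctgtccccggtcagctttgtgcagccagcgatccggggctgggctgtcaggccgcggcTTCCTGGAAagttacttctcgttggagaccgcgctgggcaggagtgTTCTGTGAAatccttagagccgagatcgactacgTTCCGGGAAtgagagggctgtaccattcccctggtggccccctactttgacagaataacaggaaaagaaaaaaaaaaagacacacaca
Runx3: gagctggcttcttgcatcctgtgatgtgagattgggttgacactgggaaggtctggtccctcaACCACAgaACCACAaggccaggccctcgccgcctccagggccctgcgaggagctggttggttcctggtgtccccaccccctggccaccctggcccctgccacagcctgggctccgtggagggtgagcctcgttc
Zbtb7b: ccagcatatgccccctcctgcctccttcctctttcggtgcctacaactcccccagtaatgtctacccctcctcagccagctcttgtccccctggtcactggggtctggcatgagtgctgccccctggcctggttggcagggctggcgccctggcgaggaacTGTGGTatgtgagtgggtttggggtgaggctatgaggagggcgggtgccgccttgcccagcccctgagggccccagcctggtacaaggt
At the 5′ end of Bcl6 there was 1 match to TTCNNNGAA, at 118 bases before the start, and at the second start there were 3, at 168, 122 and 88 bases. The Runx3 stretch held 2 copies of ACCACA, at 134 and 126 bases before the start, and the Zbtb7b window held 1 copy of TGTGGT at 89 bases.

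Maf (chr8:115682942-115707794, minus strand) gave 44.98 and 45.5 CPM in WT and 55.0 and 52.5 CPM in CD4/ALK4-KO. The groups stood apart by little, and the log2 fold change of 0.25 was not called, with a 95% interval from -0.20 to 0.69 (edgeR adjusted p = 0.40). Macrophages also express Maf, and the summed markers of macrophages and monocytes (10 genes, 3 higher and 7 not called, the most abundant Ccr2) were 2283 and 1948 CPM in WT and 2214 and 2223 CPM in CD4/ALK4-KO. Their part in the Maf value was not tested. Maf shares 440 bp of exon with an antisense gene, Zbtb7b 116 bp and Bcl6 21 bp with a gene on the other strand, and those reads likewise cannot be told apart.

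Divided by the length of their annotated exons, the levels fell into tiers. In WT, Zbtb7b (6.87 ± 0.75 CPM per kb, SD, n = 2) stood above Maf (5.49 ± 0.04), and both stood well above Rora, Bcl6, Runx3 and Prdm1 (1.87, 1.81, 1.70 and 1.61 CPM per kb), whose libraries overlapped from each to the next. Tbx21 (0.90) and Gata3 (0.65) lay below these and overlapped each other, and Eomes (0.45 CPM per kb) was lowest. In CD4/ALK4-KO, Zbtb7b (7.67 ± 1.15 CPM per kb), Rora (6.88 ± 0.88) and Maf (6.52 ± 0.21) overlapped in turn at the top. The other 6 ran from Prdm1 (4.38 CPM per kb) to Eomes (2.24), each overlapping its neighbour. Rora did not overlap Maf in WT and overlapped it in CD4/ALK4-KO.

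Measured against the CD3 chains, no factor was called higher in CD4/ALK4-KO, and those that were called were lower. On this scale, here called the Cd3 scale, the effective library size was replaced by the summed counts of Cd3e, Cd3d and Cd3g (2169 and 2023 in WT, 8870 and 7680 in CD4/ALK4-KO). By the edgeR test 4 of the 9 were lower, Bcl6, Maf, Runx3 and Zbtb7b, and 0 were higher. This is to be read against a background in which 0.352% of all genes tested were higher and 91.0% lower, with a median log2 fold change of -2.15. The median of the 9 was -0.67. At an unadjusted p of 0.05, 0 of the 9 were higher, and DESeq2 called 0 higher and 3 lower. In 6 of the 9, both CD4/ALK4-KO libraries lay below both WT libraries, as for 94.3% of all genes. The error of the CD3 counts themselves is not in these tests.

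**Figure D2:**
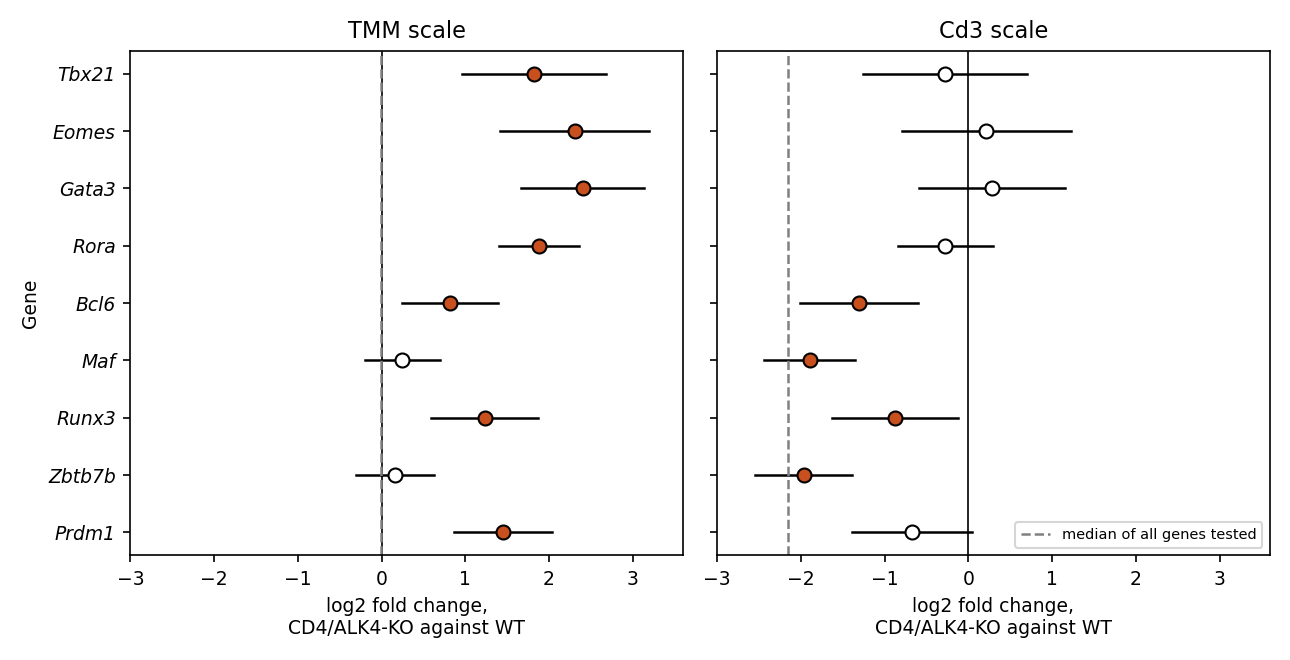
Log2 fold change (CD4/ALK4-KO against WT) of each factor with its 95% interval on the TMM scale (left) and the Cd3 scale (right), filled where the edgeR adjusted p was under 0.05, with the median of all genes tested as a dashed line. On the left 7 filled points lie right of 0, and on the right 4 filled points lie left of 0, while the other 5 intervals cross it.

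Per 1000 CD3 counts, Tbx21 gave 17.1 and 11.9 in WT and 8.005 and 15.9 in CD4/ALK4-KO, which overlapped (log2 fold change -0.28, 95% interval -1.26 to 0.70). Eomes gave 11.99 and 12.4 in WT and 7.67 and 20.7 in CD4/ALK4-KO, the knockout values lying on both sides of WT (0.22, interval -0.79 to 1.23). Gata3 gave 18.0 and 15.3 in WT and 15.3 and 25.4 in CD4/ALK4-KO, again with overlap (0.29, interval -0.59 to 1.16). For these 3 master regulators no difference from the CD3 chains was detected, and the intervals are wide enough to hold a change in either direction. The sign of Eomes turned without CD4/ALK4-KO replicate 2 (-0.66) and so did that of Gata3 (-0.12), and that of Tbx21 turned without WT replicate 1 (0.01) or CD4/ALK4-KO replicate 1 (0.13).

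Rora gave 133 and 185 per 1000 CD3 counts in WT and 132 and 132 in CD4/ALK4-KO. The knockout libraries were nearly equal and just under the lower WT library, and the difference was not called (log2 fold change -0.27, 95% interval -0.84 to 0.29, edgeR adjusted p = 0.35). Prdm1 gave 53.9 and 62.8 in WT and 26.8 and 46.5 in CD4/ALK4-KO, with no overlap. Its log2 fold change of -0.67 missed the threshold (interval -1.39 to 0.04, edgeR adjusted p = 0.071), and was called without CD4/ALK4-KO replicate 2 (-1.12, adjusted p = 0.0015).

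Zbtb7b and Maf were furthest below the CD3 chains. Zbtb7b gave 262 and 237 per 1000 CD3 counts in WT against 51.5 and 76.3 in CD4/ALK4-KO (log2 fold change -1.97, standard error 0.29, edgeR adjusted p = 4.98e-08). Maf gave 284 and 304 against 73.8 and 84.5 (-1.89, standard error 0.27, edgeR adjusted p = 2.41e-08). Both values lay close to the median of all genes on this scale, and their libraries were far from overlapping.

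Bcl6 and Runx3 lay between these and the CD3 chains. Bcl6 gave 67.8 and 90.5 per 1000 CD3 counts in WT and 25.3 and 38.7 in CD4/ALK4-KO (log2 fold change -1.31, standard error 0.35, edgeR adjusted p = 0.000666). That call was just lost without WT replicate 2 (-1.08, adjusted p = 0.0501). Runx3 gave 60.4 and 49.9 in WT and 19.3 and 41.1 in CD4/ALK4-KO (-0.87, standard error 0.37, edgeR adjusted p = 0.0269). Its call was lost without WT replicate 1 (-0.73), WT replicate 2 (-1.001) or CD4/ALK4-KO replicate 1 (-0.42), with Cd3g alone as the reference (-0.82, adjusted p = 0.082) and in DESeq2 (-0.87, adjusted p = 0.053).

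**Figure D3:**
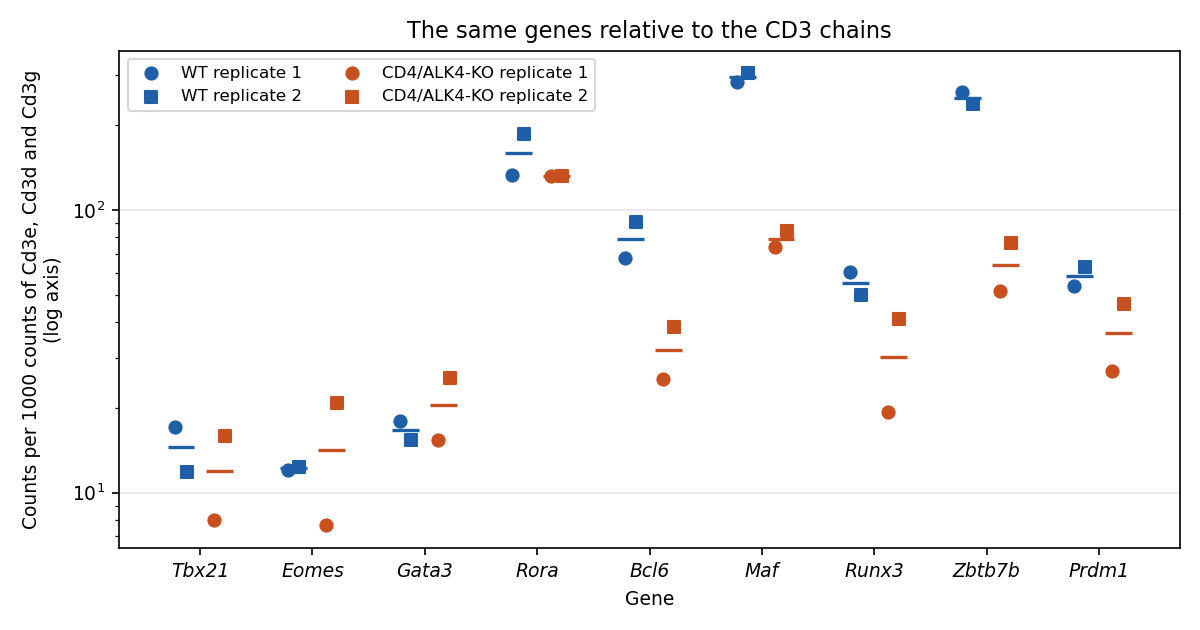
Counts of each factor per 1000 summed counts of Cd3e, Cd3d and Cd3g (log axis) in each library, circles for replicate 1 and squares for replicate 2, with a bar at the group mean (n = 2). WT and CD4/ALK4-KO points overlap for Tbx21, Eomes and Gata3 and are far apart for Zbtb7b and Maf.

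The CD3 chains did not move as one. On the TMM scale the log2 fold changes were 2.92 for Cd3e, 2.16 for Cd3g and 1.97 for Cd3d, and on the scale of their sum Cd3e was still higher (0.79, edgeR adjusted p = 0.020). With Cd3e alone as the reference, 7 of the 9 factors were lower, Tbx21 (-1.10), Rora (-1.08) and Prdm1 (-1.51) joining the 4. Of the 13919 genes tested, 13446 were lower against that reference. With other T cell genes as the reference (the summed Lck, Cd2, Cd5, Cd247 and Lat), 6 were lower, the 4 with Rora (-0.66) and Prdm1 (-1.09). Against it 13171 of all genes tested were lower. Maf and Zbtb7b were lower under all 11 alternatives run on this scale, as were most of all genes tested.

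Ratios between the counts of 2 factors in the same library do not depend on library size or on the CD3 counts. They are not corrected for exon length, so a ratio alone does not rank the 2 factors by level. Of 7 pairs compared, 5 did not overlap between the groups, where 67.1% of all pairs of tested genes do not, so the count says nothing particular about these pairs. With 2 libraries a group the exact permutation test, two-sided, cannot go below 0.333, and after adjustment over the 7 pairs no p was under 0.467, so none of these differences passes a threshold. Zbtb7b exceeded Runx3 by 4.34 and 4.75 times in WT and by 2.67 and 1.85 times in CD4/ALK4-KO, a log2 ratio lower by 1.03 in the knockout (exact permutation p = 0.333). Without CD4/ALK4-KO replicate 2 the difference was -0.76. The coreceptors of the lineages that this pair separates both rose on the TMM scale, Cd4 by 2.62 and Cd8a by 2.43 on the log2 scale.

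In raw counts, Bcl6 exceeded Prdm1 in WT (1.26 and 1.44 times) and was below it in CD4/ALK4-KO (0.941 and 0.832 times). The raw count of Tbx21 was 0.949 and 0.774 times that of Gata3 in WT and 0.522 and 0.626 times in CD4/ALK4-KO. Tbx21 was 0.252 and 0.131 times Bcl6 in WT and 0.317 and 0.411 times in CD4/ALK4-KO. In these 3 pairs the groups stood apart, with log2 ratio differences of -0.60, -0.58 and 0.99 (exact permutation p = 0.333 each). The last moved to 0.52 when WT replicate 2 was left out and to 1.46 when WT replicate 1 was. Maf to Bcl6 also stood apart, with a difference of -0.57. Tbx21 to Rora (-0.08) and Eomes to Tbx21 (0.38) overlapped between the groups.

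**Figure D4:**
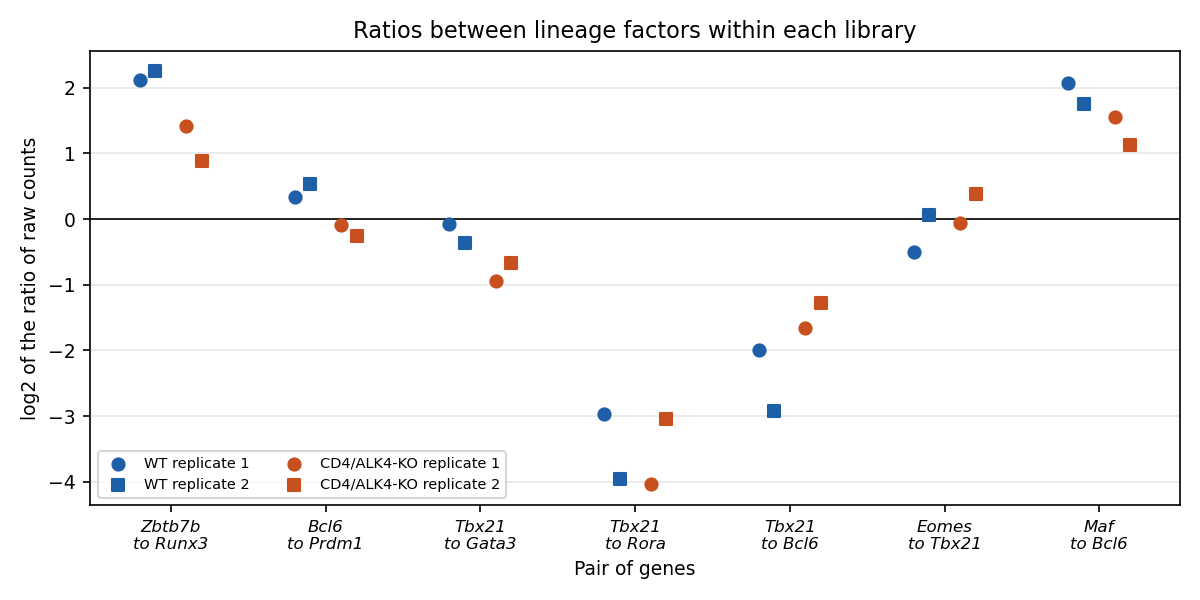
Log2 ratio of the raw counts of 2 factors in each library, circles for replicate 1 and squares for replicate 2, blue for WT and orange for CD4/ALK4-KO. The points of the groups overlap for Tbx21 to Rora and for Eomes to Tbx21 and are apart for the other 5 pairs.

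Replicate 2 was the higher of the CD4/ALK4-KO libraries for 7 of the 9 factors, all but Rora and Maf. After the 2.25-fold gap of Eomes, the widest were 1.78-fold for Runx3 and 1.66-fold for Tbx21, and in Maf the libraries differed by 1.05-fold. The 6 B cell markers, of which Cd79b was the most abundant, moved the same way. All 6 rose on the TMM scale, beside 17.4% of all genes. Their summed level was 65.4 and 51.4 CPM in WT and 170 and 358 CPM in CD4/ALK4-KO, highest in replicate 2. B cells also express Bcl6, and plasma cells Prdm1. The plasma cell markers (5 of 6 tested, 2 higher and 1 lower, most abundant Xbp1) summed to 409 to 475 CPM in WT and 397 to 427 CPM in CD4/ALK4-KO. In WT the largest parts of that sum were Xbp1 and Sdc1. Their group means were 225 CPM in WT and 241 in CD4/ALK4-KO for Xbp1, and 174 and 66.9 for Sdc1. The sum therefore says little about the other markers. Jchain (log2 fold change 1.27) and Mzb1 (1.38) were higher and Sdc1 (-1.38) lower, while Xbp1 (0.09) and Derl3 (1.70) were not called. Tnfrsf17 was at 0 counts in both WT libraries and at 2 and 1 in CD4/ALK4-KO. The part of B cells and plasma cells in the rise of Bcl6 and Prdm1 was not tested.

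Other cells share these factors too. The marker counts that follow are on the TMM scale, where 17.4% of all genes rose and 15.4% fell. Among 7 NK cell markers, which accompany Tbx21 and Eomes, 6 were tested and 5 rose, with Tyrobp the most abundant and sums of 388 and 457 CPM in WT and 427 and 554 CPM in CD4/ALK4-KO. Tyrobp is also a myeloid gene, and Ncr1, the NK receptor named here after its values were seen, gave 59 and 115 counts in WT and 339 and 353 in CD4/ALK4-KO, while Klra4 had 0 counts in 3 libraries and 2 in CD4/ALK4-KO replicate 2. The ILC2 markers other than Gata3 and Rora themselves numbered 6, of which 3 rose and 2 fell, with Il7r the most abundant. They summed to 486 and 369 CPM in WT and 770 and 526 CPM in CD4/ALK4-KO. The rise of that sum lay in Il7r, with 160 and 172 CPM in WT and 644 and 416 CPM in CD4/ALK4-KO. On the Cd3 scale Il7r was lower (log2 fold change -0.49, edgeR adjusted p = 0.030), as were 91.0% of all genes. Which cells gave the Il7r counts was not tested. Of the ILC2 and Th2 receptor Il1rl1 the libraries held 280 and 139 CPM in WT and 69.3 and 64.5 CPM in CD4/ALK4-KO, so it fell (log2 fold change -1.65, edgeR adjusted p = 0.00012) while Gata3 rose. Summed markers of the remaining cell types were 749 and 904 CPM in WT and 548 and 443 in CD4/ALK4-KO for alveolar macrophages (6 genes, 1 higher and 2 lower, most abundant Chil3), 876 and 1367 against 1371 and 890 for neutrophils (6 genes, 2 higher, S100a9), and 855 and 857 against 558 and 413 for epithelium (6 genes, 2 higher and 4 lower, Scgb1a1). Fibroblast markers (6 genes, 3 lower, most abundant Col3a1) summed to 6167 and 6850 CPM in WT and 4588 and 3820 CPM in CD4/ALK4-KO. Endothelial markers (6 genes, 1 higher and 1 lower, Pecam1) summed to 53.6 and 71.0 against 125 and 135. The rise of that sum lay in Pecam1, with 22.5 and 42.6 CPM in WT and 106 and 108 CPM in CD4/ALK4-KO. The median log2 fold change of the 6 endothelial markers was -0.60. The part of these cell types in the values of the lineage factors was not tested.

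The partners of these factors were taken from a list of 28 signal transducers and cofactors, of which 27 were tested. On the TMM scale 19 rose, beside 17.4% of all genes, with a median log2 fold change of 1.46, close to that of the 9 factors. On the Cd3 scale 3 were higher and 15 lower, with a median of -0.66, and the higher calls did not all hold when single libraries were left out. Over all genes on that scale 0.352% were higher and 91.0% lower, with a median of -2.15. Among the most abundant, Id2, which restrains E proteins in effector cells, rose by 0.71 on the log2 scale, and the hypoxia factor Hif1a gave 0.10 and was not called. Foxp3, the master regulator of regulatory T cells, rose from 4.88 and 2.07 CPM to 16.9 and 28.1 CPM (log2 fold change 2.69) and was not called on the Cd3 scale (0.59).

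Of 11 Th1 genes, 8 rose on the TMM scale, with a median log2 fold change of 1.27 (17.4% of all genes rose). On the Cd3 scale 6 of the 11 were lower, beside 91.0% of all genes. Ifng, the cytokine gene that T-bet activates, rose from 8.602 and 11.004 CPM to 30.0 and 30.9 CPM (1.63) and was not called on the Cd3 scale (-0.51). The most abundant were Il18r1, a receptor chain for IL-18 (1.27), the chemokine Ccl5 (0.98) and Il18rap, which was not called (0.14).

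The Th2 genes were mostly too low to test, with 4 of 10 tested, 2 of them higher and 1 lower (17.4% and 15.4% of all genes). The cytokine Il4 gave 6 counts in each of the 4 libraries, and Il13 and Il9 gave 0 counts in every library, so a change of these cytokines beside the rise of Gata3 was not detectable at this depth. A count of 0 allows up to 3 counts a library, for counting error only. The chemokine receptor Ccr4 rose by 2.93, and the IL-4 receptor chain Il4ra gave 0.35 and was not called.

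Of 9 Th17 genes 6 were tested and 4 rose, beside 17.4% of all genes, with a median of 1.76. Il17a rose from 3.28 and 6.28 CPM to 21.3 and 10.03 CPM (log2 fold change 1.71, edgeR adjusted p = 0.0017), highest in CD4/ALK4-KO replicate 1, as was Rora. Ccr6, the chemokine receptor of Th17 cells, rose by 2.94 and Il21r by 1.82, while Il1r1 gave -0.42 and was not called. On the Cd3 scale 2 of the 6 were lower, beside 91.0% of all genes, and without CD4/ALK4-KO replicate 1 there were 4 calls, 1 higher and 3 lower.

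Of 12 follicular helper genes 10 rose, beside 17.4% of all genes, with a median of 2.01, which is above the 0.82 of Bcl6 itself. Cxcr5, the receptor that brings T cells and B cells into follicles, rose from 4.37 and 2.73 CPM to 18.5 and 37.8 CPM (log2 fold change 2.98), again highest in the library with the most B cell marker counts. The costimulator Icos rose by 2.01, Btla by 2.00 and the receptor chain Il6st by 0.77. On the Cd3 scale 1 was higher, Cxcr5 (0.89), and 4 were lower, beside 91.0% of all genes lower. None was higher without WT replicate 1 or WT replicate 2 (3 lower each) or without CD4/ALK4-KO replicate 2 (4 lower), and 3 were higher and 3 lower without CD4/ALK4-KO replicate 1.

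All 7 genes of the list for the CD4 and CD8 choice rose on the TMM scale, with a median of 2.26, beside 17.4% of all genes. That list also holds cytotoxic genes. Cd4, a target held active by ThPOK, rose from 55.3 and 47.9 CPM to 307 and 326 CPM (log2 fold change 2.62), while Zbtb7b was not called. Which cells of these bulk libraries gave the Zbtb7b counts was not tested. Cd8a, which marks CD8 T cells, rose from 26.6 and 23.7 CPM to 168 and 104 CPM (2.43), and Cd8b1 by 2.49, so transcripts of the CD8 coreceptor were present in every library of this CD4+ isolation. The cytotoxic genes Nkg7 and Gzmb rose by 1.73 and 1.65. On the Cd3 scale 1 of the 7 was called, Cd4 (0.48), where 91.0% of all genes were lower. There were 0 calls without WT replicate 2, 1 call without WT replicate 1, which was lower, and 3 calls without CD4/ALK4-KO replicate 2, 1 higher and 2 lower. The part of CD8 T cells in the rise of Runx3 was not tested.

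**Figure D5:**
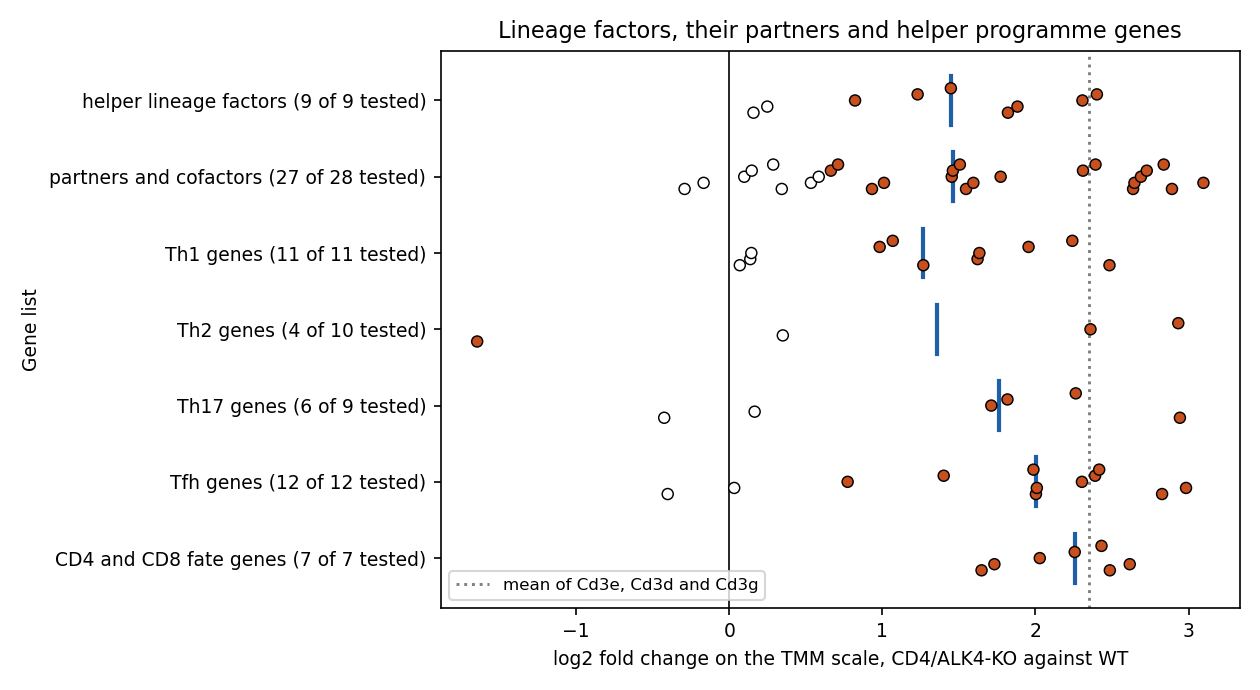
Log2 fold change on the TMM scale (CD4/ALK4-KO against WT) of each tested gene in the 9 lineage factors, their partners and the 5 programme lists, filled where the edgeR adjusted p was under 0.05, with a blue bar at each median and a dotted line at the mean of the CD3 chains. Medians run from 1.27 for Th1 genes to 2.26 for the CD4 and CD8 choice, with 1.45 for the 9 factors, and Il1rl1 is the filled point left of 0.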

How the data were processed

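RNA from CD4+ T cells isolated from the leukocytes of tumor-bearing lungs was sequenced as 75 bp single reads from an unstranded kit. Per the labels and the study's methods, the authors aligned reads with HISAT2 to mm10 and counted them per gene with HTSeq, and deposited raw counts, 1 table per library. The annotation and strand setting used for counting, and versions, are not given in the sources used here.

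Counts were tested with edgeR 4.0.16 in R 4.3.3 (quasi-likelihood, robust, genotype as the only term) over the 13919 genes kept by its filter on low counts, with Benjamini-Hochberg adjustment over all of them and a threshold of 0.05. Standard errors and 95% intervals come from the same fit. Library sizes were scaled by TMM or replaced by the summed Cd3e, Cd3d and Cd3g counts. Total counts per library were 11823908 to 13943237, and values of members with few counts (24 to 39 for Tbx21, Eomes and Gata3 in WT) are the least precise. The fit was tested on simulated counts, drawn with the same dispersion for every gene and with the CD3 genes unchanged between groups. False calls on the Cd3 scale were not counted there, so it does not vouch for the calls on that scale. Lengths are GENCODE M21 exon unions on GRCm38. DESeq2 1.42.0, other scalings and references, other filters, a replicate block and leaving out each library were alternatives.

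Besides the 9 factors, the text names the CD3 chains, Cd4, Cd8a, Acvr1b, the 3 tested genes of highest mean CPM in each partner or programme list (genes that are not reported here are left out), Foxp3, Ifng, Il4, Il17a, Cxcr5 and Cd8b1, and the most abundant gene of each marker list. Il13, Il9, Ncr1, Klra4, Tnfrsf17, Jchain, Mzb1, Sdc1 and Derl3 were named after their values were seen, and 9230102O04Rik for its shared exon. Lck, Cd2, Cd5, Cd247 and Lat are named as an alternative reference to the CD3 chains. The factors and lists were chosen with earlier results of these data known. Of the 7 pairs of factors, ratios of raw counts were compared with an exact permutation test.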

Additional observations from a re-analysis of the deposited data

How the results depend on the processing

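On the TMM scale 7 factors were called, and 5 to 7 under the 10 alternatives. Bcl6 was lost with the replicate block (0.82, adjusted p = 0.083), which called 6 of the 9, and Bcl6 and Runx3 were lost without single libraries as given with their values. The replicate block changed no other member's call on either scale and left 4 on the Cd3 scale. The same numbers in the labels are not said to mark a shared animal or day, and deviations of same-numbered libraries from their group means correlated at -0.21. Over all genes, calls fell from 2422 higher and 2140 lower to 1135 and 775 without WT replicate 1 and to 1394 and 1070 without WT replicate 2, and rose to 2917 and 2553 without CD4/ALK4-KO replicate 1 and 2716 and 2583 without CD4/ALK4-KO replicate 2. Upper quartile scaling gave 2149 and 2428.

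On the Cd3 scale 4 factors were called, 7 with Cd3e alone, and 2 to 5 when 1 library was left out, with 2 (Maf and Zbtb7b) without WT replicate 2. The sign of Eomes turned with the geometric mean of the CD3 chains (-0.010), Cd3e alone (-0.64) and 5 other T cell genes (-0.22), and that of Gata3 with Cd3e alone (-0.53) and the 5 other T cell genes (-0.11). Leaving out 1 library gave log2 fold changes from -0.66 to 0.77 for Eomes, -0.12 to 0.61 for Gata3 and -0.85 to 0.13 for Tbx21 on this scale, and from -0.0039 to 0.33 for Zbtb7b on the TMM scale. The cause was not tested. The reference of 5 other T cell genes was chosen after seeing the data, in place of the planned sum of 6. Prdm1 was also called with the geometric mean (-0.89). With every reference used on this scale, most of all genes tested were lower. The pair ratios were recomputed without each library, an alternative chosen after seeing the data, and kept their sign except Tbx21 to Rora (-0.58 to 0.42).

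With 2 libraries a group and 24 to 39 WT counts, the intervals of Tbx21, Eomes and Gata3 on the Cd3 scale do not settle a direction.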
